A study of Mus musculus with 8 samples.

Results

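The genes described here are 9 genes of MHC class I antigen presentation, H2-K1, H2-D1, B2m, Tap1, Tap2, Tapbp, Psmb8, Psmb9 and Nlrc5. They were taken by name, and not by a rule on measured values, from the 21851 protein-coding genes of the annotation. Earlier results of these data were known when they were chosen. Chromatin accessibility was measured by ATAC-seq, in which the transposase Tn5 cuts and tags open DNA, in nuclei of formalin-fixed, paraffin-embedded (FFPE) spleens from C57BL/6J mice, of both sexes and 8 weeks old in the study as a whole. Tagmented nuclei were divided and their DNA was purified with reverse crosslinking, which undoes the formaldehyde bonds (+RV), or without it (−RV), so that the comparison asks what this step changes. There were 2 +RV and 2 −RV bulk libraries, each with its own list of peaks, and 4 single-cell libraries, whose fragments form 1 pooled +RV set and 1 pooled −RV set. The study describes the bulk replicates as technical, so the SDs and p-values of bulk libraries measure technical spread only, and nothing here measures the spread between animals.

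MHC class I molecules show peptides from inside the cell to CD8+ T cells and are made by nearly all nucleated cells, lymphocytes above most others. The immunoproteasome cuts proteins into peptides, the TAP transporter carries these into the endoplasmic reticulum, and tapasin helps load them onto a heavy chain paired with beta-2 microglobulin.

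The bulk lists held 47755 and 47864 peaks in the +RV libraries, against 32288 and 32736 peaks in the −RV libraries. The +RV single-cell set held 13703580 nuclear fragments of 18620 barcodes, with a median of 667 fragments per barcode, and the −RV set held 1592372 nuclear fragments of 2406 barcodes, with a median of 633. Only 2 barcodes occurred in both sets.

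Of the 9 genes, 7 lie on chromosome 17 (mm10, as are all positions here). H2-K1 (33996017 to 34000347, minus strand) and H2-D1 (35262730 to 35267499, plus strand) encode the classical class I heavy chains of this strain. Tapbp (33915899 to 33929292, plus strand) encodes tapasin. Psmb9 (34181987 to 34187764, minus strand) and Psmb8 (34197721 to 34201454, plus strand) encode catalytic subunits of the immunoproteasome, and Tap1 (34187553 to 34197225, plus strand) and Tap2 (34203527 to 34216321, plus strand) encode the transporter's subunits. Psmb9 and Tap1 are divergent genes whose annotated 5′ ends overlap, so both share a promoter. B2m, the gene of beta-2 microglobulin, lies on chromosome 2 (122147686 to 122153083, plus strand) within the annotated span of Patl2. Nlrc5, a transactivator of class I genes, lies on chromosome 8 (94434356 to 94527272, plus strand).

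Reference promoter sequences were matched for 7 genes, with 8 entries because H2-K1 has 2 RefSeq start sites. The 250 bases before the start are shown for both heavy chains, the light chain and Tap1, because in all 4 bulk libraries the summit of the promoter peak fell inside them. The same held for Psmb9, whose entry is the other strand of nearly the same stretch as that of Tap1 and is not repeated. The sequences are from RefSeq (GRCm38.p6), 5′ to 3′ on the strand of the gene, at chr17:34000348-34000597 (H2-K1, minus strand), chr17:35262844-35263093 (H2-D1, plus strand), chr2:122147437-122147686 (B2m, plus strand) and chr17:34187306-34187555 (Tap1, plus strand). Capitals mark matches to the motifs listed after the sequences.
H2-K1: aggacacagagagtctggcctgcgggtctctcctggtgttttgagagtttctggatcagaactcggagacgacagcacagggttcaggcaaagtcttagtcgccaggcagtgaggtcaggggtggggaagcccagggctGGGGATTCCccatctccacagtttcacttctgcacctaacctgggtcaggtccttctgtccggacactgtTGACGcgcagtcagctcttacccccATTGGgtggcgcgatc
H2-D1: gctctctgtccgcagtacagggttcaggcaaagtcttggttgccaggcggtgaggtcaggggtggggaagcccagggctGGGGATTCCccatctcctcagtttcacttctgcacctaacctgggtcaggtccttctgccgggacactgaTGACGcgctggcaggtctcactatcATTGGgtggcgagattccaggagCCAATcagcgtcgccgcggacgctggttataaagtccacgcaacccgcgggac
B2m: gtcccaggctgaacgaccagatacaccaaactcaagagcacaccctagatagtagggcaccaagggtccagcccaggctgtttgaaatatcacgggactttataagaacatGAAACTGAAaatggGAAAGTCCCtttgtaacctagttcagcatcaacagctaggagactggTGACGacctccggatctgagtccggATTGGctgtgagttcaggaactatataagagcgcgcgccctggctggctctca
Tap1: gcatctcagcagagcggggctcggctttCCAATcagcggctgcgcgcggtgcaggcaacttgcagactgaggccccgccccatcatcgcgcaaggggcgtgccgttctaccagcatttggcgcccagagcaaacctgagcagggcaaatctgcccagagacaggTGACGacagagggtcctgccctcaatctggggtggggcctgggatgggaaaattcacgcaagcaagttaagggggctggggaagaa

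The motifs searched on both strands were GAAANNGAA (the interferon-stimulated response element), GGGNNTTNC (NF-kB), CCAAT (NF-Y) and TGACG (the core of a cyclic AMP response element, also the letters of the X2 box or site alpha of MHC promoters). CCAAT was present in 7 of the 8 member entries, against 33.8% of 32851 promoters, and TGACG in 6 of 8, against 17.8%. GGGNNTTNC was present in 4 of 8 entries, against 13.0% of promoters. GAAANNGAA was present in 1 of 8, that of B2m, against 7.13%. It is 1 spelling of the response element, and other spellings, which the other entries may hold, were not searched. The entries share sequence, since both H2-K1 entries overlap, those of Tap1 and Psmb9 overlap on opposite strands, and H2-K1 and H2-D1 had 211 identical bases of 239 aligned (88.3%). A match is a description of these letters and not of a bound factor.

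In H2-K1, H2-D1 and B2m the TGACG match was followed by ATTGG, which is CCAAT on the other strand, with 20 bases between them. Counted from the RefSeq start, TGACG began at −41 in H2-K1 (first entry), −101 in H2-D1 and −78 in B2m, while ATTGG began at −16 in H2-K1, −76 in H2-D1 and −53 in B2m. That spacing, which was looked for after the matches had been seen, occurred in 30 of the 32851 promoters (0.0913%) of 26 genes, including H2-M3, a non-classical class I gene. The bulk summits lay close to these letters, between −53 and −6 in H2-K1, between −147 and −93 in H2-D1, and between −104 and −90 in B2m. In Tap1 they lay between −166 and −64, with CCAAT at −222 and TGACG at −86. The Tapbp entry had ATTGG at −248 and −165 and its summits lay downstream of the start, at 18 to 90. The Psmb8 entry held none of the 4 motifs.

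Promoters of 8 of the 9 genes held a peak in both replicates of each condition. Here a promoter spanned the 1000 bp before and the 200 bp after any GENCODE start, and a peak was called where it touched that window. Over all protein-coding genes, both +RV libraries called 53.6%, both −RV libraries called 47.7% and all 4 libraries called 47.7%. No member was called in both +RV libraries and in neither −RV library, against 3.48% of all genes. Peak heights are the deposited fold enrichment at the summit over the local background, a ratio without unit. In bulk tissue, fewer nuclei with an open promoter and less open chromatin per nucleus cannot be told apart.

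The promoter of H2-K1 had the highest peak of the 9 genes in every library. Its fold enrichment was 9.22 and 8.22 in the +RV libraries, against 11.6 and 10.1 in the −RV libraries, so all +RV values lay below all −RV values. Among the promoter peaks of the same library these values stood at the 80.6 and 64.3 percentiles in +RV and at the 98.3 and 94.0 percentiles in −RV. The means were 8.72 ± 0.707 in +RV and 10.8 ± 1.06 in −RV (SD, n = 2 each), a ratio of 0.804, with p = 0.333 in a two-sided exact permutation test, the smallest p that 2 against 2 libraries can give. For H2-D1 the fold was 5.53 and 6.16 in +RV, against 7.07 and 6.35 in −RV, again without overlap (ratio 0.871).

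For the light chain gene the conditions overlapped. B2m had folds of 6.21 and 5.79 in +RV, against 6.19 and 5.96 in −RV (ratio 0.988). A second, weaker peak in the first intron of B2m (chromosome 2, 122148459 to 122148878) was present in all libraries, with folds of 3.25 and 3.48 in +RV, against 3.01 and 3.28 in −RV.

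The promoter shared by Tap1 and Psmb9 had folds of 6.97 and 6.65 in +RV, against 8.47 and 7.52 in −RV, without overlap (ratio 0.852). Tapbp had low peaks of 4.45 and 3.89 in +RV, against 4.16 and 4.49 in −RV, and Psmb8 had 4.62 and 4.17 in +RV, against 4.51 and 5.05 in −RV. Both pairs of groups overlapped. The Psmb8 values belong to different summits, at 34198310 near the RefSeq start in +RV and at 34197706 and 34197673 near the GENCODE start in −RV, and the −RV peaks at the +RV place had folds of 3.83 and 4.66. Nlrc5 was the only member with higher folds in both +RV libraries, 5.77 and 6.33, against 5.27 and 5.03 in −RV (ratio 1.17). The exact permutation p was 0.333 for each pair of groups that did not overlap.

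**Figure D1:**
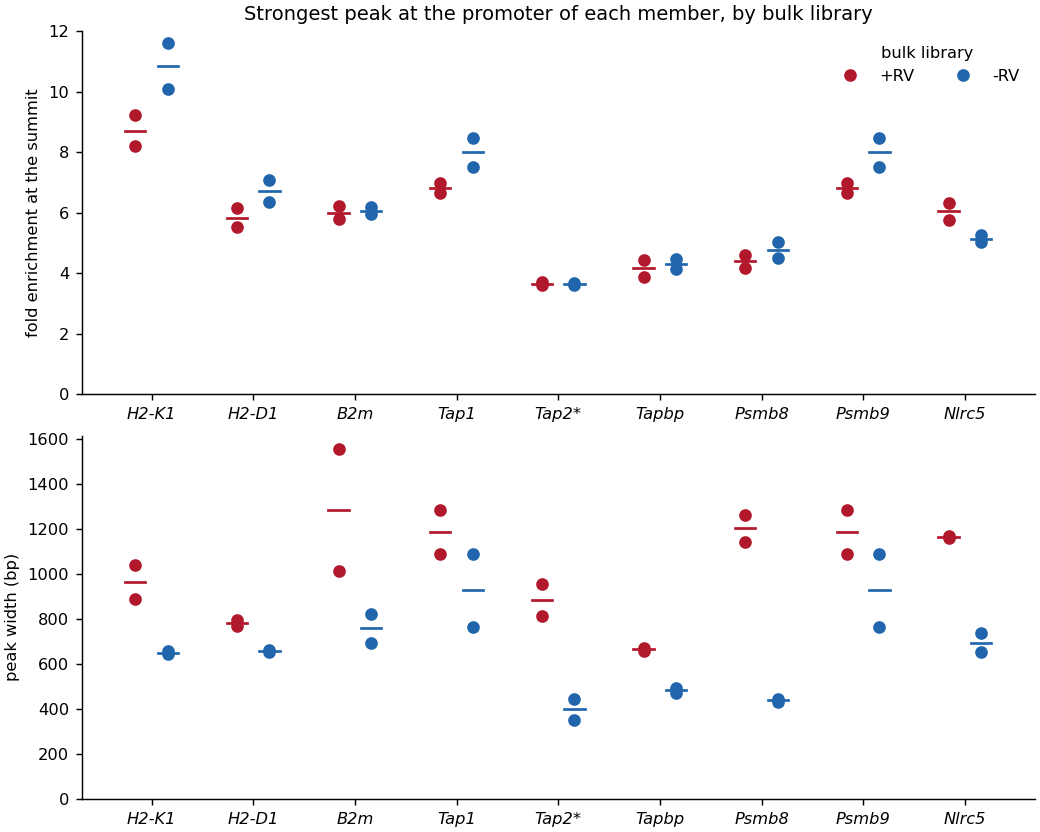
Fold enrichment and width (bp) of the strongest promoter peak of each member in the 4 bulk libraries, with a point per library, +RV left of −RV, and a bar at the mean of each condition. Tap2 carries an asterisk because its peak lies downstream of the promoter window and the peak nearest to its start is drawn. Folds of H2-K1, H2-D1 and the shared Tap1 and Psmb9 peak are lower in +RV, while most peaks are wider in +RV.

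In total the fold was lower in both +RV libraries than in both −RV libraries for 4 of the 8 called members (H2-K1, H2-D1, Tap1 and Psmb9, the last pair through 1 peak), against 12.2% of the 10416 genes called in all 4 libraries. It was higher for 1 of 8 (Nlrc5), against 50.1%. The median +RV over −RV ratio of the fold was 0.895 over the 8 members and 1.10 over all called genes. The count of members with a lower fold was 7 without +RV replicate 1 and 6 without −RV replicate 1. Leaving out a library can only keep or raise this count. No share over all genes was computed under that looser rule, so these counts have nothing to be set against.

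Widths went the other way. The H2-K1 peak was 887 and 1038 bp wide in +RV, against 645 and 656 bp in −RV, and the Nlrc5 peak was 1167 and 1160 bp in +RV, against 739 and 651 bp in −RV. The largest ratio, 2.74, belonged to Psmb8, whose peak was 1264 and 1142 bp wide in +RV, against 445 and 433 bp in −RV. There 1 joined peak in +RV covered the place of 2 separate −RV peaks, so that the −RV width is that of the stronger of them. Width was higher in both +RV libraries for 6 of 8 members, against 79.0% of called genes, and the median ratio was 1.43 over the members and 1.32 over all called genes. The −log10 q of the peak, which also grows with depth, was higher in both +RV libraries for 6 of 8 members, against 91.3% of called genes, with a median ratio of 1.21 over the members and 1.6 over all called genes. The groups overlapped for H2-K1 and H2-D1, and H2-K1 had −log10 q of 98.8 and 82.3 in +RV, against 84.3 and 77.7 in −RV.

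Tap2 was the member without a promoter call, and its peaks lay at another annotated start. In all 4 libraries the nearest summit was downstream of the GENCODE start, by 972 and 1011 bp in +RV and by 942 and 859 bp in −RV. The RefSeq start lies 952 bp downstream of the GENCODE one (at 34204479), and the same summits were 20 and 59 bp from it in +RV and −10 and −93 bp from it in −RV. These peaks were the lowest of the members in every library, with folds of 3.6 and 3.73 in +RV, against 3.68 and 3.62 in −RV. With RefSeq starts in place of GENCODE starts, a choice made after the data had been seen, Tap2 was called and Nlrc5 was not. With all GENCODE protein-coding starts, also chosen then, 9 of 9 members were called in both conditions. More starts widen the stretch searched for any gene, and the share over all genes was not computed under either choice. The RefSeq start of Nlrc5 lies 38372 bp downstream of the GENCODE start, while the Nlrc5 summits were within 190 bp of the GENCODE start in every library.

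Around the 9 genes, peaks were counted in 6 spans (each gene with 20 kb on both sides, merged where they touch), 395145 bp in all. The +RV libraries had 43 and 47 peaks there, against 39 and 38 peaks in the −RV libraries. The means were 45.00 ± 2.83 peaks in +RV and 38.50 ± 0.707 in −RV (SD, n = 2 each), a ratio of 1.17 with p = 0.333 (two-sided exact permutation test), while the ratio of the whole lists was 1.47. With the same number of best-ranked peaks from every library the ratio turned to 0.922. Peaks covered 26115 and 27307 bp in +RV, against 18181 and 16918 bp in −RV, a ratio of 1.52 (p = 0.333, exact permutation test). The groups did not overlap in either measure.

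Merged over libraries, the spans held 49 regions. Of these 29 (59.2%) were called in all 4 libraries, against 39.2% of 60226 regions in the genome, 5 (10.2%) in both +RV libraries only, against 12.5%, and 0 in both −RV libraries only, against 0.442%. None of the 5 +RV regions was at a promoter. They were an intron of Nlrc5 (chromosome 8, 94491920 to 94492553, folds 3.48 and 5.78), an intron of Cpne2 beyond the end of Nlrc5 (94541058 to 94541592, 3.01 and 3.94), an intergenic region upstream of Tap1 and beyond the 3′ end of Psmb9 (chromosome 17, 34165114 to 34165463, 3.57 and 3.76), an exon of Tap2 (34211805 to 34212162, 3.15 and 2.79) and an intergenic region past Tap2 (34218589 to 34219225, 5.73 and 5.03).

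Other distal regions were called in all libraries with folds in the range of the member promoters. The region at 34170839 to 34171613, 16205 bp from the Tap1 start, had folds of 5.10 and 6.54 in +RV, against 6.78 and 6.51 in −RV. The region at 33978340 to 33979352, beyond the 3′ end of H2-K1, had 6.44 and 6.26 in +RV, against 7.36 and 6.99 in −RV. The region at 35274454 to 35275283, past H2-D1, had 4.86 and 5.43 in +RV, against 4.76 and 4.10 in −RV.

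**Figure D2:**
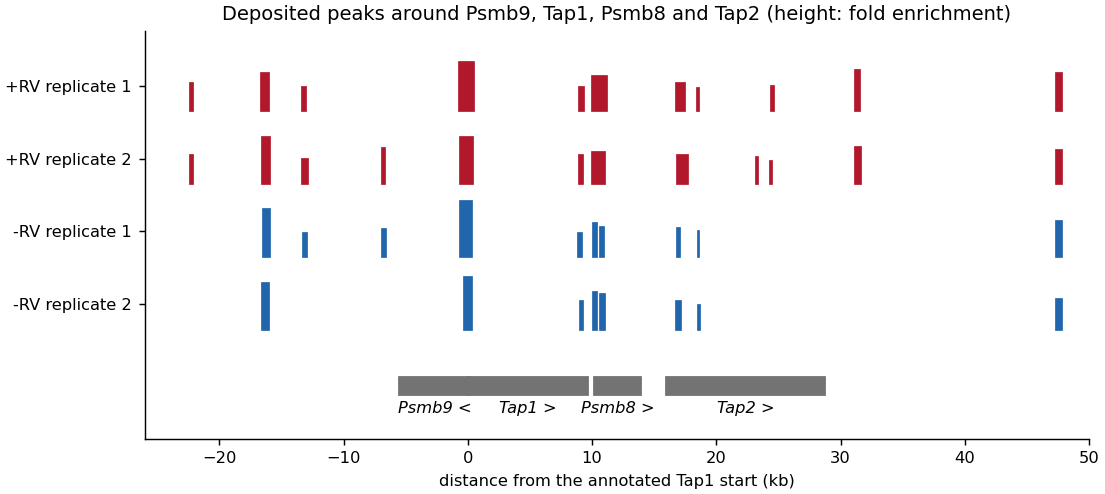
Peaks of the 4 bulk libraries around Psmb9, Tap1, Psmb8 and Tap2, with the distance from the Tap1 start in kb on the horizontal axis and the fold enrichment of each peak as its height, +RV libraries above −RV libraries. The shared Tap1 and Psmb9 promoter peak recurs in every library, and the peak 15231 bp past the Tap2 start appears in the +RV libraries only.

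In the single-cell sets, with GENCODE starts, the highest promoter levels were those of B2m, H2-K1 and Tap1. Fragments were assigned by their midpoint to the promoter window and scaled to a total of 1000000 nuclear fragments of the set (CPM). With RefSeq starts the +RV order was B2m (22.5 CPM), H2-D1 (19.9 CPM), H2-K1 (18.8 CPM), Psmb9 (17.5 CPM) and Tap1 (15.8 CPM). Each condition was 1 pooled set, so no test was possible and the 95% intervals cover counting error only. Barcodes had been selected partly on their share of fragments at starts, so the level of promoters is set in part by that choice. B2m had 308 fragments or 22.5 CPM (20 to 25.1) in +RV, against 48 fragments or 30.1 CPM (22.2 to 40.0) in −RV, at the 93.6 and 98.1 percentiles of all genes in those sets. The ratio of 0.746 had an interval of 0.549 to 1.03.

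H2-K1 had 263 fragments or 19.2 CPM (16.9 to 21.7) in +RV, against 28 fragments or 17.6 CPM (11.7 to 25.4) in −RV, the 90.3 percentile of both sets. H2-D1 had 137 fragments or 10 CPM (8.39 to 11.8) in +RV, against 14 fragments or 8.79 CPM (4.81 to 14.8) in −RV. Its RefSeq start lies 364 bp downstream of the GENCODE start, and a window there held 273 fragments (19.9 CPM) in +RV and 34 (21.4 CPM) in −RV. Which of the heavy chain promoters was the more open in the single-cell sets therefore depended on the annotated start.

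Tap1 had 248 fragments or 18.1 CPM in +RV, against 24 fragments or 15.1 CPM in −RV. Tapbp had 150 fragments or 10.9 CPM in +RV, against 19 fragments or 11.9 CPM in −RV. Psmb9 had 126 fragments or 9.19 CPM in +RV, against 9 fragments or 5.65 CPM in −RV, and at the RefSeq start 240 fragments or 17.5 CPM in +RV, against 21 fragments or 13.2 CPM in −RV. Psmb8 had 94 or 6.86 CPM in +RV, against 8 or 5.02 CPM in −RV. Windows of Tap1 and Psmb9 overlap, so some fragments count for both.

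Nlrc5 had 114 fragments or 8.32 CPM in +RV, against 9 or 5.65 CPM in −RV, spread over 4 windows. Of the +RV fragments 96 fell at the first start, and 7, 6 and 5 at the others. Tap2 had the lowest level, with 30 fragments or 2.19 CPM in +RV and 1 fragment or 0.628 CPM in −RV. At the RefSeq start of Tap2 there were 73 fragments (5.33 CPM) in +RV and 9 (5.65 CPM) in −RV, a ratio of 0.943 (0.470 to 2.14). Per kb of window, the +RV order began with B2m (18.7 CPM per kb), H2-K1 (14.9) and Tap1 (12.5), and ended with Tap2 (1.82) and Nlrc5 (1.73). The Nlrc5 value is spread over all 4 windows, and the first of them alone had 5.84 CPM per kb, beside 5.71 for Psmb8.

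**Figure D3:**
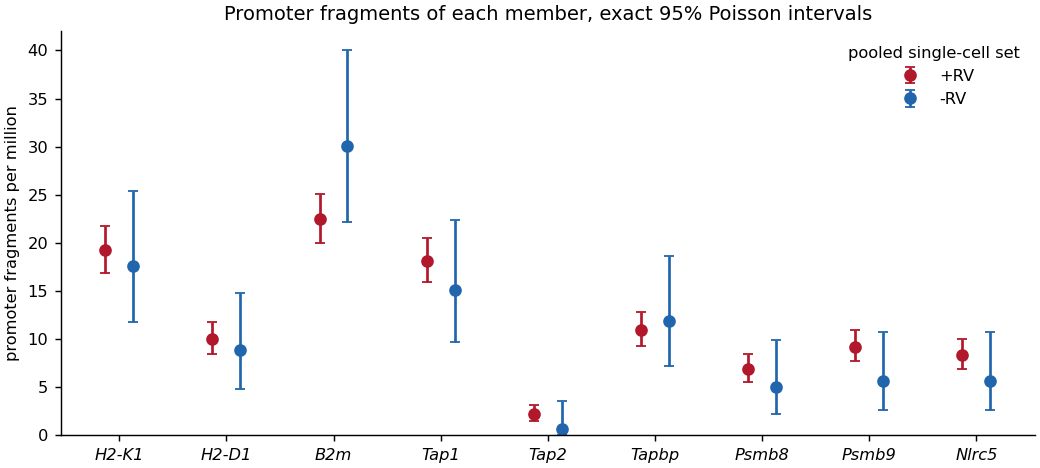
Promoter fragments of each member in CPM in the pooled +RV and −RV single-cell sets, +RV left of −RV, with exact 95% Poisson intervals as bars. The intervals of the sets overlap for each of the 9 genes, and B2m stands highest in both sets.

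The +RV over −RV ratio had an interval above 1 for 0 of 9 members, against 5.18% of the 17882 genes with at least 5 fragments, and an interval below 1 for 0 of 9, against 1.45%. At these counts a ratio had to be far from 1 to be seen, since the −RV set held 153 member fragments in all. The median log2 ratio, with a pseudocount of 1 CPM, was 0.25 over the members (−0.41 for B2m to 0.97 for Tap2) and 0.18 over those 17882 genes. A member promoter fragment was found in 1287 barcodes (6.91%) in +RV and in 143 (5.94%) in −RV, and the most that 1 barcode held was 4 in +RV and 2 in −RV.

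The places of the Tn5 insertions were set against both annotated starts. In 50-bp bins the highest bin of H2-K1 and of B2m was centred 25 bp upstream of the GENCODE start in both sets. For H2-D1 it was 325 bp downstream in +RV and 275 bp downstream in −RV, near the RefSeq start. For Tap2 it was 1025 bp downstream in both sets, again near the RefSeq start, and for Psmb8 it was 525 bp downstream in +RV and 475 bp downstream in −RV, with the RefSeq start 405 bp downstream. Psmb8 was open at both starts, since the 6 bins nearest to the RefSeq start held 89 insertions in +RV and the 6 nearest to the GENCODE start held 91. Tap1 had its highest bin 175 bp upstream in both sets, and Psmb9 had it 275 bp downstream. Tapbp had it 175 bp downstream in +RV and 275 bp downstream in −RV, where the highest bin held 7 insertions. For Nlrc5 the highest +RV bin was 25 bp upstream of the GENCODE start, while its highest −RV bin held 2 insertions and marks no place.

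**Figure D4:**
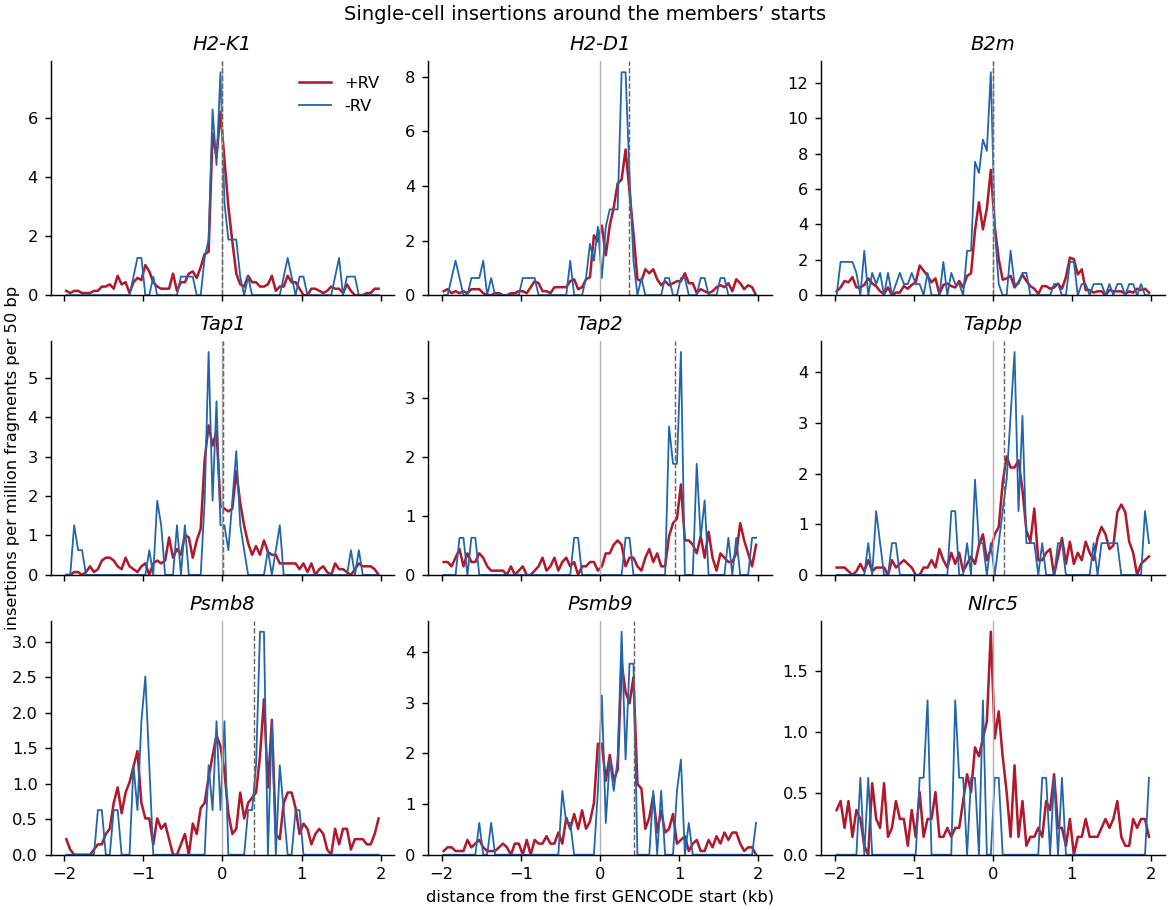
Tn5 insertions of the pooled single-cell sets around the start of each member, in 50-bp bins against the distance in kb from the first GENCODE start. A grey line marks that start and a dashed line the RefSeq start, which for Nlrc5 lies outside the drawn range. Insertions of H2-D1 and Tap2 gather near the dashed line, those of H2-K1, B2m and Nlrc5 at the grey line, and those of Psmb8 at both.

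Fragments at these promoters were longer with reverse crosslinking. Of 1383 member fragments in +RV 31.8% (exact binomial 95% interval 29.4 to 34.3) were longer than 150 bp, about the length of DNA on a nucleosome, against 5.23% (2.28 to 10) of 153 in −RV. The median of their lengths was 97.0 bp with +RV, against 75.0 bp for −RV. Over all promoters the shares were 28.5% in +RV and 4.30% in −RV, and over all nuclear fragments 19.7% in +RV and 2.04% in −RV, so the difference between the sets ran through the whole of them. H2-D1 had the highest share in +RV, 41.6% (33.3 to 50.3), against 0 of 14 fragments in −RV, which allows a share of up to 21.4% (3 counts of the total, as for the other counts of 0 here, in place of a binomial interval). The windows of H2-D1 and of Psmb9, at 38.9% in +RV, ended 200 bp after the GENCODE start, short of their highest insertion bins. Shares at RefSeq starts were not computed. H2-K1 had 28.5% (23.1 to 34.4) in +RV, against 7.14% (0.877 to 23.5) in −RV, and B2m had 31.2% (26.0 to 36.7) in +RV, against 6.25% (1.31 to 17.2) in −RV. In −RV no long fragment was seen among 19 of Tapbp, 8 of Psmb8 and 9 of Psmb9, which allows shares of up to 15.8% for Tapbp, 37.5% for Psmb8 and 33.3% for Psmb9, nor in the single fragment of Tap2.

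To place the members among cell types, the 21026 barcodes of both sets were clustered on 5000-bp bins, with 245 bins within 100 kb of a member left out, so that the members did not define the clusters. Of 10 clusters, 8 took a name from their marker genes and 2 stayed unnamed. The named ones were T cell-like (3619 barcodes, in which NK cell markers were also high), B cell-like (3277), macrophage and monocyte-like (2847), stromal-like (2125), erythroid-like (1672), endothelial-like (1658), plasma cell-like (828) and pancreatic acinar-like (795). The last held fragments of the pancreatic acinar marker genes at 24.4 times their level in the other barcodes, in tissue labelled spleen. Marker lists were counted over gene windows, from 5000 bp before to 500 bp after each gene. Unnamed cluster 4 (2409 barcodes) had raised erythroid markers and was led by Nkx1-2 and Slc30a10. Unnamed cluster 6 (1796) had raised B cell markers and was led by Neurod4. None of those markers was among the leading genes of either. The study clustered each condition by itself, after a filter that also set a minimum enrichment at starts. It reported no genes specific to spleen cell types in either condition. It concluded that this conventional assay does not resolve cell types in FFPE tissue. The clusters here pool both sets without that filter, and their names describe raised marker counts only. Why the outcomes differ was not tested.

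Over the 9 genes together, each fragment counted once, promoter fragments were most frequent in the clusters named B cell-like, T cell-like and plasma cell-like. The level, scaled to the nuclear fragments of each cluster, was 151 CPM (136 to 168) in B cell-like barcodes, 128 (113 to 143) in T cell-like, 122 (94.7 to 155) in plasma cell-like and 102 (84.3 to 122) in endothelial-like barcodes. It was 97.5 (85.2 to 111) in macrophage and monocyte-like and 84.4 (70.9 to 99.8) in stromal-like barcodes, 78.4 in unnamed cluster 4, 70.9 (56.2 to 88.4) in erythroid-like, 64.9 (47.4 to 86.9) in pancreatic acinar-like barcodes and 57.5 in unnamed cluster 6. Of neighbours in this order only the B cell-like and T cell-like clusters had a ratio whose interval left out 1 (1.18, 1.01 to 1.39). That order did not hold in the alternatives. B cell-like over T cell-like was 0.922 (0.792 to 1.08) at Leiden resolution 0.5, 0.899 (0.768 to 1.05) without the 5% deepest barcodes and 0.986 (0.904 to 1.08) over whole gene windows. At resolution 0.5 the B cell-like level was 118 CPM, below T cell-like (128) and plasma cell-like (125) barcodes. Unnamed cluster 6, the lowest in the main clustering, also had raised B cell markers, so not all barcodes with such markers had a high level.

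The share of fragments in promoters differed between clusters, 11.9% to 16.6%, and was highest in erythroid-like barcodes. Scaled instead to 1000000 promoter fragments, the members reached 1104 in B cell-like, 895 in T cell-like and 788 in macrophage and monocyte-like barcodes, against 428 in erythroid-like and 399 in pancreatic acinar-like barcodes. The intervals of the sets overlapped in every cluster. B cell-like barcodes had 151 CPM in +RV and 151 in −RV, T cell-like barcodes 128 in +RV and 125 in −RV, and erythroid-like barcodes 73.4 (57.3 to 92.6) in +RV and 54.6 (23.6 to 108) in −RV. Clusters pool all libraries of both sets, so all intervals cover counting error only.

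Both heavy chain genes, Tap1, Psmb8 and Nlrc5 were higher in B cell-like than in erythroid-like barcodes beyond counting error, and for the light chain gene the interval included 1. H2-K1 had 80 fragments or 35.9 CPM in B cell-like barcodes, against 7 fragments or 6.29 CPM in erythroid-like barcodes, a ratio of 5.71 (2.65 to 14.7). H2-D1 had 17.5 CPM in B cell-like barcodes, against 8.08 CPM in erythroid-like barcodes, a ratio of 2.17 (1.03 to 5.09). B2m had 27.4 CPM in B cell-like and 28.7 in erythroid-like barcodes, a ratio of 0.953 (0.612 to 1.51). Tap1 had 23.3 CPM in B cell-like barcodes, against 4.49 CPM in erythroid-like barcodes, a ratio of 5.20 (2.09 to 16.7). Psmb8 had 22 fragments in B cell-like barcodes, against 1 in erythroid-like barcodes, a ratio of 11 (1.78 to 454). Nlrc5 had 22 fragments in B cell-like barcodes, against 3 in erythroid-like barcodes, a ratio of 3.67 (1.10 to 19.1). Intervals of Psmb9 (2.62, 0.886 to 10.5), Tapbp (1.32, 0.743 to 2.47) and Tap2 (4.0, 0.536 to 177) included 1.

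In this comparison 5 of 9 members had an interval above 1, against 11.4% of genes, and 0 of 9 had one below 1, against 18.9%. T cell-like over erythroid-like barcodes gave 5 of 9 above 1, against 12.8%, and 0 of 9 below 1, against 17.6%, and both comparisons share the erythroid-like barcodes. The T cell-like ratios were 4.40 (2.01 to 11.4) for H2-K1, 5.38 (2.17 to 17.2) for Tap1, 12.2 (2.00 to 502) for Psmb8, 3.30 (1.15 to 13.0) for Psmb9 and 5.21 (1.63 to 26.6) for Nlrc5. H2-D1 (1.63, 0.754 to 3.90), B2m (0.748, 0.470 to 1.21), Tapbp (0.604, 0.303 to 1.22) and Tap2 (3.42, 0.439 to 154) included 1. In the +RV set alone H2-K1 had 38.3 CPM in B cell-like barcodes, against 7.24 in erythroid-like barcodes.

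**Figure D5:**
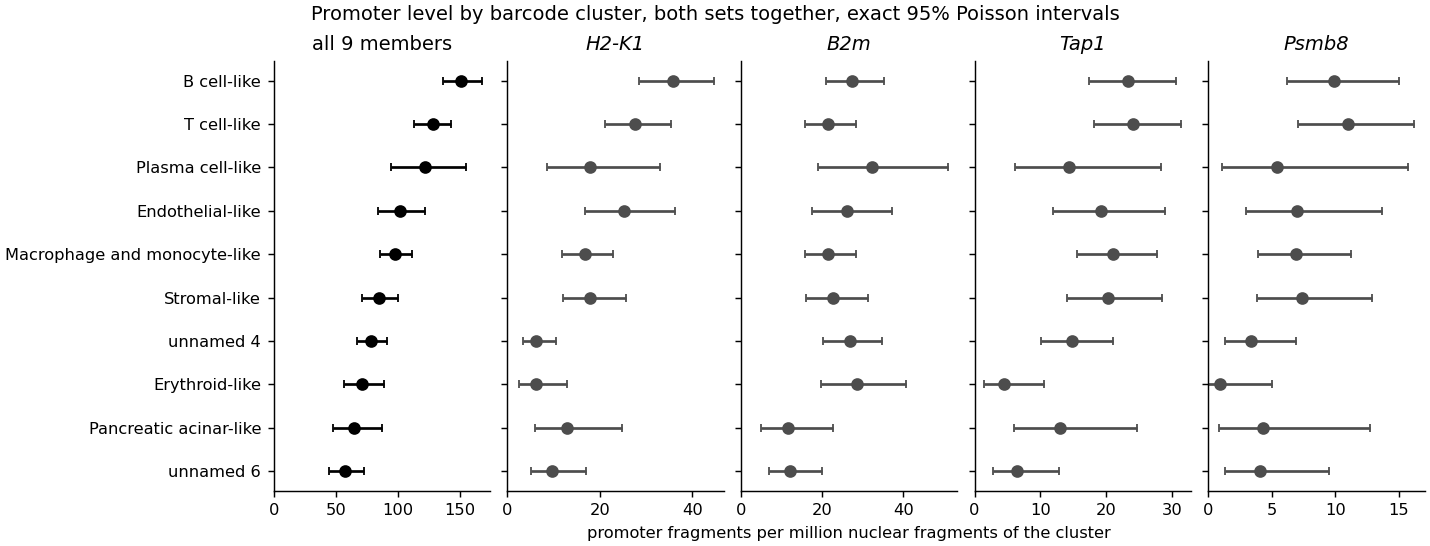
Promoter fragments in each barcode cluster in CPM of its nuclear fragments, both single-cell sets together, for the sum of the 9 members and for H2-K1, B2m, Tap1 and Psmb8, with exact 95% Poisson intervals as bars. H2-K1, Tap1 and Psmb8 are low in erythroid-like barcodes, at 6.29, 4.49 and 0.898 CPM, while B2m is at 28.7.

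Over the named clusters each member varied by its own amount. H2-K1 spanned 6.29 to 35.9 CPM (median 17.9), Tap1 4.49 to 24.1 (median 19.8) and B2m 11.5 to 32.3 (median 24.5), with B2m lowest in pancreatic acinar-like barcodes. The correlation of each gene with the sum of the others over the 10 clusters, as log2 of CPM plus 1, was highest for H2-D1 (Pearson r 0.73), Psmb9 (0.70) and H2-K1 (0.66) and lowest for Tapbp (0.19), Nlrc5 (0.34) and B2m (0.39). The genes most like the summed members, of 520 with a promoter level of at least 30 CPM, were Gnb2 (r 0.74), Rita1 (0.69), Stip1 (0.68), Gmfg (0.64) and Rassf1 (0.61). The 520 had a median r of −0.05 and spanned −0.77 to 0.74. These are descriptions over 10 clusters that share libraries and differ in depth and promoter share.

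Other genes of the pathway were taken from a list of 46. Promoters of 41 genes were called in both replicates of +RV, against 53.6% of all genes. In −RV 41 genes were called in both replicates, against 47.7%. None was called in both +RV libraries and in neither −RV library, against 3.48% of all genes. All genes were called among the loading factors and chaperones (5 of 5), the other subunits and activators of the immunoproteasome (3 of 3), the constitutive proteasome subunits (3 of 3), the regulators (13 of 13) and the MHC class II neighbours (8 of 8). Of interferon receptors 3 of 4 were called, and of non-classical and related class I genes 6 of 10. Those without a call were Ifngr2, a chain of the interferon gamma receptor, and the class I genes H2-Q4, H2-Q6, H2-Q7 and H2-Q10. For these H2-Q genes the nearest bulk summit lay between 36994 and 92184 bp from the start, upstream or downstream, over the 16 pairs of gene and library.

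The single-cell sets nevertheless held fragments at some of these promoters. H2-Q4 had 181 fragments or 13.2 CPM in +RV, against 20 or 12.6 CPM in −RV, and H2-Q7 had 193 or 14.1 CPM in +RV, against 20 or 12.6 CPM in −RV. H2-Q6 had 9.49 CPM in +RV, against 4.40 CPM in −RV, H2-Q10 had 1.09 CPM in +RV, against 1.26 CPM in −RV, and Ifngr2 had 11.3 CPM in +RV, against 6.28 CPM in −RV. These class I genes are near copies of each other. Of the 31-base words of the promoter window, the share found only once in the genome was 15.4% for H2-Q6, 28.7% for H2-Q7, 82.6% for H2-Q4 and 94.4% for H2-Q10, so fragments of H2-Q6 and H2-Q7 are uncertain in their source. Among the members the share was 68.7% for H2-K1, 73.2% for Tap2, 92.0% for H2-D1, 92.9% for Psmb9 and 96.1% for Nlrc5, and 100% for B2m, Tap1, Tapbp and Psmb8.

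Without regard to window length, the highest single-cell levels of the list belonged to Nfya, a subunit of NF-Y (45.8 CPM in +RV and 50.2 CPM in −RV), H2-DMa, a class II loading chaperone (39.5 CPM in +RV and 33.9 CPM in −RV), and Psme2, a proteasome activator subunit (32.4 CPM in +RV and 25.7 CPM in −RV). Windows of Nfya and H2-DMa are longer than most because their starts are spread, and per kb they had 17.7 and 16.3 CPM in +RV, below Psme2 (26.7), Calr (25.6) and Ifngr1 (25.3). The median log2 ratio of the 46 genes was 0.15, against 0.18 over all genes with at least 5 fragments. The ratio had an interval above 1 for 4 of 46, against 5.18% of all genes, and below 1 for 0, against 1.45%. The 4, named after their values had been seen, were Nfyb, another NF-Y subunit (2.14, 1.25 to 3.97), H2-Q6 (2.16, 1.02 to 5.47), H2-M3 (2.50, 1.24 to 5.88) and Ciita, the class II transactivator (2.70, 1.02 to 10.1).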

How the data were processed

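The authors deposited 1 peak list per bulk library, called with MACS2 at a q of 0.01 on mm10 with blacklisted regions removed. Each deposited peak has a score (not used for results), a fold enrichment (a ratio over local background) and a −log10 p and −log10 q, all set within its own library. The submitters' processing notes also name Bowtie2 2.4, SAMtools 1.15, Picard 1.119 and SEACR 1.3 without roles. Of the single-cell data the authors deposited, as other values, the positions and barcodes of unique fragments aligned with BWA, for barcodes with at least 500 fragments and a minimum share at starts. The +RV set held 856 of 18620 barcodes with at least 1500 fragments, and the −RV set 43 of 2406. That limit was only a part of the study's own filter, which also set a minimum enrichment at starts. All deposited barcodes were used and no doublet caller was run.

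Genes and starts came from GENCODE vM21 (basic), 41438 starts in all. Peaks were called at a promoter with an overlap of at least 1 bp. Library values were compared with exact permutation tests, counts with exact Poisson intervals and ratios with conditional exact binomial intervals. Barcodes were clustered with latent semantic analysis (20 components, the 1 tied to depth left out), 20 neighbours and Leiden resolution 1. A cluster was named where a marker list was at least 1.5 times its level elsewhere, with at least 3 raised markers and 1 of them in the top 10 genes. Python 3.11.15, numpy 2.4.6, pandas 2.3.3, SciPy 1.17.1, scikit-learn 1.9.0, python-igraph 0.11.9, leidenalg 0.10.2, Biopython 1.88 and matplotlib 3.10.9 were used. Peak overlap, the ratio intervals and the exact permutation test were checked on made data with known answers, and the other statistics were not.

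The members, the pathway list of 46 genes and the 12 marker lists were chosen with earlier results of these data known. Named genes were all 9 members, list genes called in no library or changed in call, the 3 highest by single-cell CPM, and the 5 most like the members over clusters. Alternatives covered peak thresholds, promoter windows, distances, pseudocounts, fragment lengths, barcode depth, clustering and left-out libraries. Those on RefSeq or comprehensive GENCODE starts and on the count of members with a lower fold were added after seeing the data.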

Additional observations from a re-analysis of the deposited data

How the results depend on the processing

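Of 223 alternative values, 208 were counted as unchanged, 14 moved and 1 comparison between libraries reversed. Unchanged meant within the counting interval, the replicate spread or 1.5 times of the value reported. For peaks and covered bases near the members it meant only that the ratio stayed above 1. Of 86 single-cell +RV over −RV ratios, whose main intervals all included 1, 10 fell on the other side of 1, in 6 of the members, so their direction is not settled. The reversal was the +RV over −RV ratio of peaks near the members, 0.922 with the same number of best-ranked peaks per library (35.50 in +RV against 38.50 in −RV). Leaving out each library in turn gave ratios of 1.12 to 1.22 for these peaks and of 1.47 to 1.58 for covered bases. With the replicate number as a block the ratios stayed 1.17 and 1.52 with p = 0.50 in the exact permutation test for both, the smallest p that 2 pairs allow, and the numbers are not known to pair samples. With the summit required inside the window, 5 members were called in +RV and 6 in −RV, in place of 8 in each, against 49.7% of all genes in +RV and 45.0% in −RV. The count of members with a lower fold in +RV, main value 4, ranged over 4 to 7 with 1 library left out, an alternative added after seeing the data. It could not fall below 4, because leaving out a library only loosens the rule, and no share over all genes was computed for it. Barcodes with at least 1000 fragments gave +RV over −RV ratios of 0.530 for H2-D1, 1.52 for B2m and 0.575 for Tap1, on 3, 3 and 6 fragments in −RV. The share of long fragments was 48.4% in +RV and 20.9% in −RV above 100 bp, and 20.2% in +RV and 0 of 153 in −RV above 200 bp, which allows up to 1.96% (3 counts of the total). At Leiden resolution 0.5 the members' B cell-like over erythroid-like ratio was 1.55 in place of 2.13. There every described cluster took a name. The B cell-like cluster held 5061 barcodes in place of 3277, and the erythroid-like cluster 4081 in place of 1672. The cause of these moves was not tested. All 36 alternatives of the promoter folds, which took the peak with its summit nearest to a start, gave the same values. They therefore did not vary the folds and say nothing of their stability. Some other unchanged values were also fixed in advance. Members were called in all 4 libraries or in none, so leaving out a library could not change their calls. A limit of −log10 q of at least 5 could not either, since the lowest value of a called member promoter was 16.6 (Psmb8, −RV replicate 1). The replicate block used the same ratios again. In the −RV single-cell set no member had more than 48 promoter fragments.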
